A study of Bos taurus with 15 samples.

Results

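The genes described here serve fatty acid uptake and milk lipid droplets in the lactating bovine mammary gland, together with a milk transporter. They were chosen by name as 5 of the 24616 identifiers in the deposited file, namely LPL (ENSBTAG00000012855), CD36 (ENSBTAG00000017866), FABP3 (ENSBTAG00000016819), PLIN2 (ENSBTAG00000005287) and ABCG2 (ENSBTAG00000017704). Of these, 4 had reads and the row listed as PLIN2 was 0 in all 15 libraries. The names come from the list that defined the group. No names stand beside the identifiers in the file, and of the 37063 genes in the annotation table used here 0 carry an Ensembl identifier, so the pairing was not checked.

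Mammary tissue was taken by needle biopsy from 4 non-pregnant Holstein cows, in lactation number 2 and between 40 and 64 days in milk, at 0, 12, 24 and 72 h, the cows having been injected once with dexamethasone (DEX, 40 mg), which is a synthetic glucocorticoid. The 0 h biopsy preceded the injection, there were no cows without DEX, and all cows received ampicillin over the biopsy period. Each time point came from its own gland of the udder (labelled QTR1 to QTR4, in the same order in every cow), so time since DEX and the gland sampled cannot be told apart. The series of 4 time points is complete for cows 2, 3 and 4, whereas for cow 1 only 0, 12 and 24 h were sequenced. The study removed a cow that stopped ruminating, taken here to be cow 1 from its missing 72 h library, which the labels do not state. QuantSeq libraries, read from the transcript end, held between 1804120 and 6228132 reads on genes, of which the 2 most abundant genes took between 47.2% and 54.4%. In cows 2 to 4 the median share of those 2 genes by time point lay between 49.4% (24 h) and 51.5% (0 h). The factor by which the deposited values are scaled was lowest in cow 4 at 72 h (0.7819) and cow 1 at 24 h (0.8084), and between 0.8797 and 1.255 in the other libraries. It was highest in cow 1 at 0 h. Markers of milk-secreting, adipose, endothelial and immune cells, and other genes of fat uptake and secretion, could not be found by name and were not analysed here.

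Long-chain fatty acids of milk fat come largely from the blood. LPL, lipoprotein lipase, frees them from triglyceride carried in circulating lipoproteins, CD36 is a membrane protein that helps move them into the cell, and FABP3 is a cytosolic protein that binds them inside the mammary epithelium. PLIN2 coats the lipid droplets that are secreted as milk fat globules, while ABCG2 is an efflux pump of the apical membrane that moves small molecules such as riboflavin into milk and carries no fat.

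ABCG2 fell to 0.347 times its starting level by 12 h after DEX and rose again by 72 h, and it was the member that passed the test against 0 h. FABP3 stood 1.65-fold above 0 h at 12 h in the fitted values without passing the test, and it fell between 12 and 24 h. LPL was lower than at 0 h in every later library and did not pass the test. CD36 had log2 fold changes between -0.21 and -0.16 against 0 h, and did not pass the test. Levels are normalized counts, that is CPM scaled by a factor for each library. Since reads come from transcript ends, levels were compared between genes without dividing by length. How completely each gene was counted was not checked. In bulk tissue, fewer cells of a type and less RNA per cell cannot be told apart.

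At 0 h the levels ran in the same order in all 4 cows. LPL had 2686 ± 242 normalized counts (SD, n = 3 cows), FABP3 1670 ± 156, CD36 1147 ± 63.9 and ABCG2 486 ± 19.3, with no overlap between neighbours in this order in cows 2 to 4. Over the 12 libraries of cows 2 to 4, FABP3 was the gene of rank 24 by mean level among all identifiers, LPL of rank 25, CD36 of rank 36 and ABCG2 of rank 93. At 12 h FABP3 stood above LPL in every cow. These levels rest on between 593 and 16472 reads per gene and library. The row listed as PLIN2 had no read in any library, which allows up to 3 reads, or between 0.464 and 1.74 normalized counts depending on the library. Such limits cover counting error only, and nothing about the level of PLIN2 or its change with DEX was measured here.

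**Figure D1:**
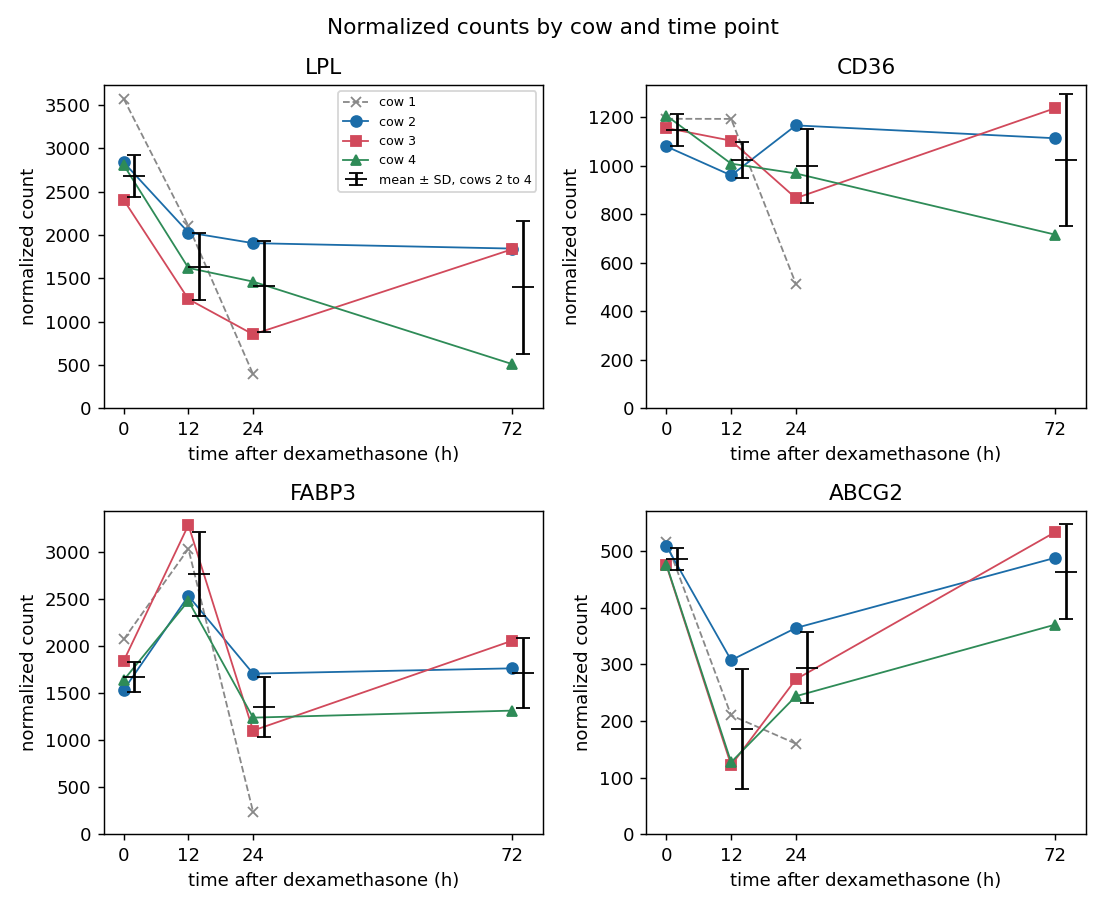
Normalized counts (vertical axes, each from 0) of LPL, CD36, FABP3 and ABCG2 against time after dexamethasone in h, with a line for each cow (cow 1 dashed, with no 72 h library) and black bars, drawn to the right of the points, for the mean ± SD of cows 2 to 4. ABCG2 at 12 h lies below 0 h in all 4 cows and is lower still at 24 h in cow 1, FABP3 peaks at 12 h in all 4, LPL lies below 0 h in every later library with cow 4 at 513 at 72 h, and cow 1 at 24 h is the lowest library for LPL, CD36 and FABP3.

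Uptake from lipoproteins is represented by LPL. Its level in cow 1 went from 3574 normalized counts before DEX to 2106 at 12 h, and a day after DEX it was 395. In cow 2 it started at 2840.1 and was then 2030.3 (12 h), 1907 (24 h) and 1845 (72 h), and in cow 3 it went from 2407 to 1262, 855 and 1837. In cow 4 it went from 2809.8 to 1622, 1464 and 513. All 4 cows were lower than at 0 h at 12 and 24 h, and the 3 cows with a later library were lower at 72 h, with no overlap between the 0 h values and those of any later time point in cows 2 to 4. Of 2922 genes averaging 10 normalized counts or more, the share that was lower without overlap in cows 2 to 4 was 13.4% (12 h), 11.4% (24 h) and 6.02% (72 h). The share that was lower in every cow with a library was 18.4% (12 h), 16% (24 h) and 14.4% (72 h).

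The log2 fold change of LPL in limma was -0.74 at 12 h (standard error 0.38, adjusted p = 0.388), -1.0 at 24 h (adjusted p = 0.238) and -1.16 at 72 h (adjusted p = 0.643), so none passed the threshold of 0.05. The 95% interval at 72 h ran from -1.97 to -0.34. Sorted by size of fall, LPL had rank 179 of the 2922 genes at 12 h, 55 at 24 h and 5 at 72 h. The value at 72 h rests on cow 4, at 18.3% of its own 0 h level, while cow 2 was at 65% and cow 3 at 76.3%. Without cow 4 the log2 fold change at 72 h was -0.51, and without only its 72 h library it was -0.54 (adjusted p = 0.845 in limma). The adjusted p ranged over the 18 other settings from 5.53e-07, with edgeR, to 1 at 72 h, and from 7.62e-08, also with edgeR, to 0.595 at 24 h. No difference of LPL between 12, 24 and 72 h passed the threshold in limma, with an adjusted p of at least 0.72.

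CD36, the membrane carrier, had time point means between 1000.2 and 1147 normalized counts in cows 2 to 4. In cow 1 it was 1193 normalized counts both before DEX and 12 h after it, and 514 at 24 h. Cow 2 had 1079 (0 h), 960.2 (12 h), 1166 (24 h) and 1113 (72 h), and cow 3 had 1155, 1103, 866 and 1236. Cow 4 had 1206, 1008, 968 and 716.5. The time points overlapped, and cows moved in both directions at 24 and 72 h. The log2 fold change in limma was -0.16 at 12 h (95% interval -0.58 to 0.25, adjusted p = 0.753), -0.21 at 24 h (-0.62 to 0.21, adjusted p = 0.713) and -0.20 at 72 h (-0.62 to 0.21, adjusted p = 0.848). The lower bounds correspond to between 0.65 and 0.67 of the starting level. With cow 4 left out the log2 fold change at 72 h was 0.07. At 24 h it was -0.54 with quantile normalization (adjusted p = 0.0645 in limma), -0.46 with all 15 libraries, -0.37 with totals without the 20 most abundant genes, -0.37 without cow 2 and -0.10 without cow 3.

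FABP3, the cytosolic binding protein, was higher at 12 h in 4 of 4 cows. Its normalized counts went from 2069 to 3032 in cow 1, from 1533 to 2532 in cow 2, from 1840.1 to 3284 in cow 3 and from 1637 to 2479 in cow 4. The lowest 12 h value lay above the highest 0 h value, cow 1 included. Of the 2922 genes, 27.1% were higher at 12 h in 4 of 4 cows, and 19.1% were higher with no overlap in cows 2 to 4. At 24 h FABP3 stood at 237 (cow 1), 1706 (cow 2), 1101 (cow 3) and 1239 (cow 4), below 12 h in every cow. Its 72 h values of 1762 (cow 2), 2055 (cow 3) and 1313 (cow 4) overlapped with 0 h.

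The log2 fold change of FABP3 at 12 h was 0.72 (standard error 0.22, 95% interval 0.26 to 1.18), and its adjusted p was 0.0795 in limma. Treating cow as a fixed term in limma gave an adjusted p of 0.0333, and over the 18 other settings it ranged from 1.56e-04 to 0.412 and was under 0.05 in 7. Between 12 and 24 h FABP3 fell by 1.05 on the log2 scale (95% interval -1.51 to -0.59, adjusted p = 0.0322 in limma), in 4 of 4 cows. It was the member called in that comparison, 1 of 4, against 0.702% of the 13525 genes tested (95 genes, and 234 with cow as a fixed term). When limma was fitted only to the 2922 genes averaging 10 normalized counts or more, it called 233 of them, FABP3 included. The call of FABP3 was lost in limma without cow 2 (-1.29, adjusted p = 0.132), without cow 3 (-0.79, adjusted p = 0.311) and without cow 4 (-1.07, adjusted p = 0.315), and the adjusted p ranged over all settings from 3.11e-08 to 0.315. With all 15 libraries the log2 fold change was -1.71. Against 0 h, FABP3 differed by -0.33 at 24 h (adjusted p = 0.574 in limma, -0.57 without cow 2, -0.12 without cow 3 and -1.03 with all 15 libraries) and by 0.01 at 72 h (95% interval -0.44 to 0.47, adjusted p = 1 in limma). From 12 to 72 h its log2 fold change was -0.71 (95% interval -1.16 to -0.25, lower in 3 of 3 cows), with an adjusted p of 0.0931 in limma and 0.038 with cow as a fixed term.

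ABCG2, the apical pump, lay between 474 and 516 normalized counts at 0 h over 4 cows. After 12 h it stood at 209.8 (cow 1), 307 (cow 2), 122 (cow 3) and 127 (cow 4). All 12 h values lay below all 0 h values. After 24 h it stood at 159.8 (cow 1), 364 (cow 2), 273 (cow 3) and 244 (cow 4), and after 72 h at 488 (cow 2), 533 (cow 3) and 369.6 (cow 4). The 24 h values were still below all 0 h values, while those at 72 h overlapped with 0 h. Of the 2922 genes averaging 10 normalized counts or more, 13.4% (12 h) and 11.4% (24 h) were lower without overlap in cows 2 to 4.

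At 12 h the fitted log2 fold change of ABCG2 came to -1.53, with a standard error of 0.27 (adjusted p = 0.00211 in limma), a level of 0.347 times that at 0 h with a 95% interval from 0.235 to 0.511. It was the member called at 12 h, 1 of 4, against 3.88% of the 13525 genes tested and 11.5% of the 2922 more abundant genes, and its fall had rank 29 of those 2922. The call was lost in limma without cow 3 (-1.31, adjusted p = 0.0992) and without cow 4 (-1.34, adjusted p = 0.0773), and it held in 16 of the 18 other settings, with an adjusted p between 1.36e-15 and 0.0992. At 24 h the log2 fold change was -0.75 (95% interval -1.31 to -0.19, adjusted p = 0.191 in limma). Values were lower in 4 of 4 cows, as they were for 16% of the 2922 genes. The adjusted p was under 0.05 in 4 of the 18 settings (range 3.87e-04 to 0.602). From 12 to 72 h ABCG2 rose by 1.44 (95% interval 0.88 to 2.00, adjusted p = 0.00349 in limma), in 3 of 3 cows, and was the member called, 1 of 4, against 3.62% of all genes tested. When limma was fitted only to the 2922 more abundant genes, it called 501 of them, ABCG2 and FABP3 included. The call of ABCG2 from 12 to 72 h was lost in limma without cow 3 (1.10, adjusted p = 0.213) and without cow 4 (1.40, adjusted p = 0.0577), in a range from 3.32e-14 to 0.213. At 72 h it differed from 0 h by -0.09 (95% interval -0.65 to 0.47, adjusted p = 1 in limma).

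**Figure D2:**
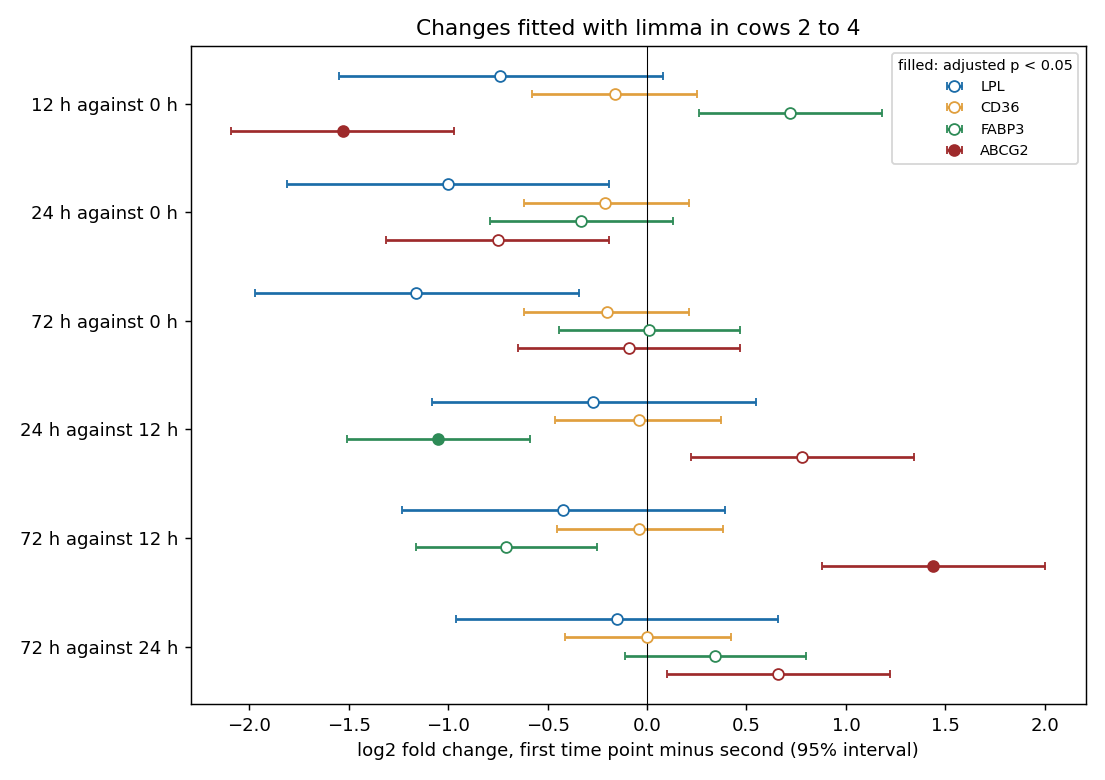
Log2 fold changes fitted with limma in cows 2 to 4 (horizontal axis, first time point minus second, with 95% intervals) for 4 genes in each of 6 comparisons (vertical axis), with filled points where the adjusted p is under 0.05. The filled points are ABCG2 at 12 h against 0 h (-1.53), FABP3 at 24 h against 12 h (-1.05) and ABCG2 at 72 h against 12 h (1.44).

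In limma 0 of the 4 genes passed the threshold at 24 h against 0 h, where 2.31% of the 13525 genes tested did, and 2 (LPL and ABCG2) had an unadjusted p under 0.05, as did 13.7% of all genes tested. On the recovered reads edgeR called both, among 4.66% of genes, and DESeq2 called ABCG2, among 7.06% of the 5921 genes to which it gave an adjusted p. At 72 h against 0 h limma called 0 of the 4 and 0% of all genes tested, with an unadjusted p under 0.05 for LPL and for 931 genes in all (6.88%). There edgeR called LPL among 55 genes (0.407%), and DESeq2 called 0 of the 4 and 22 genes in all (3.25% of the 677 to which it gave an adjusted p). At 72 h against 24 h limma called 0 of the 4 and 3.56% of all genes, ABCG2 having an unadjusted p of 0.0233 in limma, which 14.7% of genes had under 0.05. Both edgeR and DESeq2 called ABCG2 there, edgeR among 7.3% of the genes and DESeq2 among 10.4% of the 6445 with an adjusted p. The median log2 fold change of the 4 genes was -0.45 at 12 h, -0.54 at 24 h and -0.14 at 72 h, beside medians of 0.075, 0.067 and 0.022 over the 2922 more abundant genes. A median over 4 genes hides that FABP3 and ABCG2 had fold changes of opposite sign at 12 h. The comparisons with 0 h share the 0 h libraries.

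The size of the differences from 0 h varied between cows. At 12 h ABCG2 was at 60.4% of its own 0 h level in cow 2, against 40.7% in cow 1, 25.6% in cow 3 and 26.7% in cow 4. LPL at 12 h was at 71.5% in cow 2 and between 52.4% and 58.9% in the other cows. Across the 2922 genes the median size of the log2 change at 12 h was also smallest in cow 2, at 0.288 against 0.35 to 0.365 in the others. FABP3 differs from this order, with cow 2 at 165.2% of its own 0 h level, between cow 1 at 146.5% and cow 3 at 178.5%.

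The library of cow 1 at 24 h was low for all 4 genes. LPL was at 11.1% of that cow's own 0 h level and FABP3 at 11.4%, ABCG2 at 31% and CD36 at 43%. These levels include that cow's scaling factor, which was 1.255 at 0 h and 0.8084 at 24 h. As a share of reads, ABCG2 went from 0.0411% at 0 h to 0.0198% and CD36 from 0.0951% to 0.0635%. By the same measure LPL went from 0.285% to 0.0489% and FABP3 from 0.165% to 0.0293% in that library. Sorted by fall in that library, LPL had rank 14 and FABP3 rank 16 of the 2922 genes, ABCG2 rank 109 and CD36 rank 213, while 11.1% of the 2922 genes were at less than 0.5 of their 0 h level, against 3.7% to 3.9% at 24 h in the other cows. With the libraries of cow 1 added, LPL passed the threshold at 24 h (log2 fold change -1.55, adjusted p = 0.0399 in limma) and so did ABCG2 (-0.98, adjusted p = 0.0335 in limma). When only the 24 h library of cow 1 was kept out, neither did. FABP3 at 12 h passed when that library was kept out and the other libraries of cow 1 were used (0.68, adjusted p = 0.0287 in limma).

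**Figure D3:**
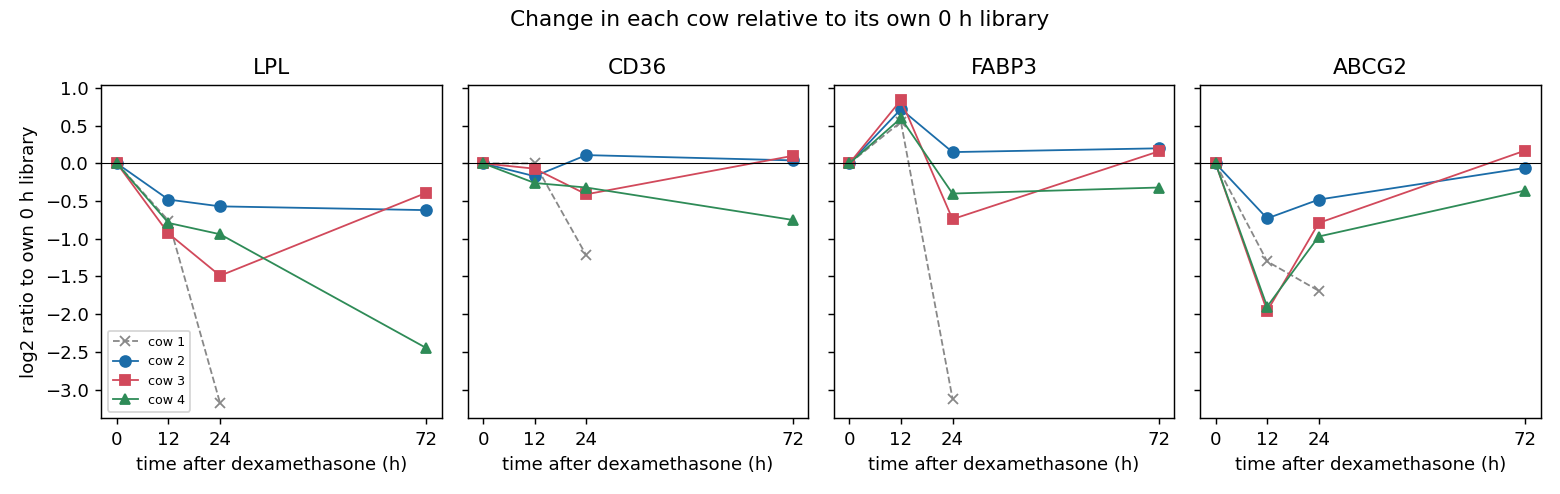
Log2 ratio of each library to the same cow's 0 h library (vertical axis, shared) against time after dexamethasone in h, for 4 genes and 4 cows (cow 1 dashed). Cow 1 at 24 h drops to -3.18 for LPL and -3.12 for FABP3, cow 4 at 72 h drops to -2.45 for LPL, and cow 2 shows the smallest fall of ABCG2 at 12 h (-0.73).

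The spread between cows was not the same at each time point. The coefficient of variation (SD over mean, n = 3 cows) of ABCG2 was 3.97% (0 h), 57% (12 h), 21.4% (24 h) and 18.2% (72 h), where the median over the 2922 genes was 16.3%, 14.7%, 17.1% and 17.8%. At 0 h 4.79% of the 2922 genes varied less than ABCG2, and at 12 h 98.5% did. ABCG2 had rank 93 by mean level, so most of these genes rest on fewer reads, and no allowance was made for counting error. For LPL the coefficient of variation was 9%, 23.5%, 37.5% and 54.8% in the same order. Some of these values rest on a single library. Without cow 4 the 72 h value of LPL was 0.318%, and without cow 2 the 12 h value of ABCG2 was 3.07% (n = 2 cows each, computed after seeing the data). At 0 h the value of ABCG2 rests on between 822 and 2317 reads per library, and without cow 2 it was 0.224%. CD36 and FABP3 had values between 5.57% and 26.6%. With n = 3 cows these are descriptions and the spread was not tested.

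Ratios of genes within a library do not change when the whole library is scaled by a single factor. The ratio of FABP3 to ABCG2 was between 3.01 and 4.01 at 0 h in 4 cows, and at 12 h it was 14.4 in cow 1, 8.24 in cow 2, 27 in cow 3 and 19.5 in cow 4. Among the 24 h libraries it was 1.48 in cow 1 and between 4.03 and 5.09 in cows 2 to 4, above each of these cows' own 0 h ratio. At 72 h it was between 3.55 and 3.86, inside the 0 h range. The ratio of FABP3 to LPL was between 0.54 and 0.764 at 0 h and between 1.25 and 2.6 at 12 h, so the pair changed order in every cow. It ran from 0.6 to 1.29 at 24 h, with cow 3 above 1, and from 0.955 to 2.56 at 72 h, above the 0 h range in every cow, with cow 3 (1.12) and cow 4 (2.56) above 1. LPL relative to CD36 ran from 2.08 to 2.99 at 0 h, from 1.14 to 2.11 at 12 h, from 0.769 to 1.64 at 24 h and from 0.716 to 1.66 at 72 h. It was thus lower than the cow's own 0 h ratio in every later library. CD36 relative to FABP3 was between 0.577 and 0.737 at 0 h, between 0.336 and 0.407 at 12 h, between 0.684 and 2.17 at 24 h, the highest in cow 1, and between 0.546 and 0.632 at 72 h. A ratio shows unequal change and does not say which of the 2 genes moved.

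**Figure D4:**
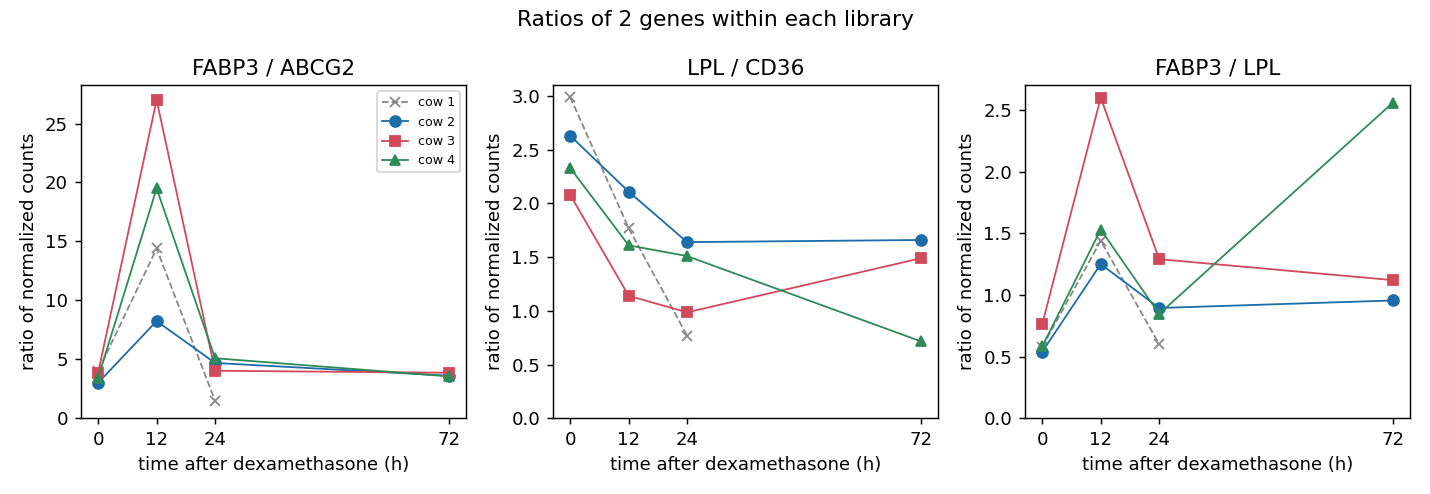
Ratios of normalized counts of 2 genes within each library (vertical axes, each from 0) against time after dexamethasone in h, with a line for each cow (cow 1 dashed). FABP3 to ABCG2 peaks at 12 h at between 8.24 and 27 and is back between 3.55 and 3.86 at 72 h, LPL to CD36 stays below each cow's 0 h ratio, and FABP3 to LPL is high at 12 h in all cows and again in cow 4 at 72 h (2.56).

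Over the 12 libraries of cows 2 to 4, LPL and CD36 had a Pearson's r of 0.84 and a Spearman's rho of 0.55 on the log2 scale. Without the library of cow 4 at 72 h, where both were low in normalized counts, r was 0.64 and rho 0.41 over 11 libraries. The scaling factor of that library was 0.7819. In cow 4, CD36 took 0.116% of reads at 0 h, 0.0891% at 24 h and 0.0916% at 72 h. LPL took 0.269%, 0.135% and 0.0656%, the last in that 72 h library. FABP3 and ABCG2 gave r = -0.45 and rho = -0.15, and the other 4 pairs had r between 0.25 and 0.42. LPL and ABCG2 had r = 0.35 and rho = 0.55, and without that library r = 0.60 and rho = 0.65. The same step moved r from 0.25 to 0.46 for CD36 and ABCG2 and from 0.30 to 0.11 for LPL and FABP3. These 12 libraries come from 3 animals and share time points, and both genes of a pair are read at the depth of the same library, so the correlations are descriptions only. Among 2918 other genes averaging 10 normalized counts or more, those most like ABCG2 over the 12 libraries were ENSBTAG00000008143 (r = 0.948), with mean normalized counts of 51.3 (0 h), 21.7 (12 h), 35.4 (24 h) and 49.7 (72 h), and ENSBTAG00000010932 (r = 0.936), with 1196, 439, 807 and 1194. Those most like FABP3 were ENSBTAG00000009351 (r = 0.926) and ENSBTAG00000008977 (r = 0.925), the latter with 71.7, 108, 67 and 76.1. The highest r of any gene with LPL was 0.864 and with CD36 0.88. None of these has a name in the sources used here.

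**Figure D5:**
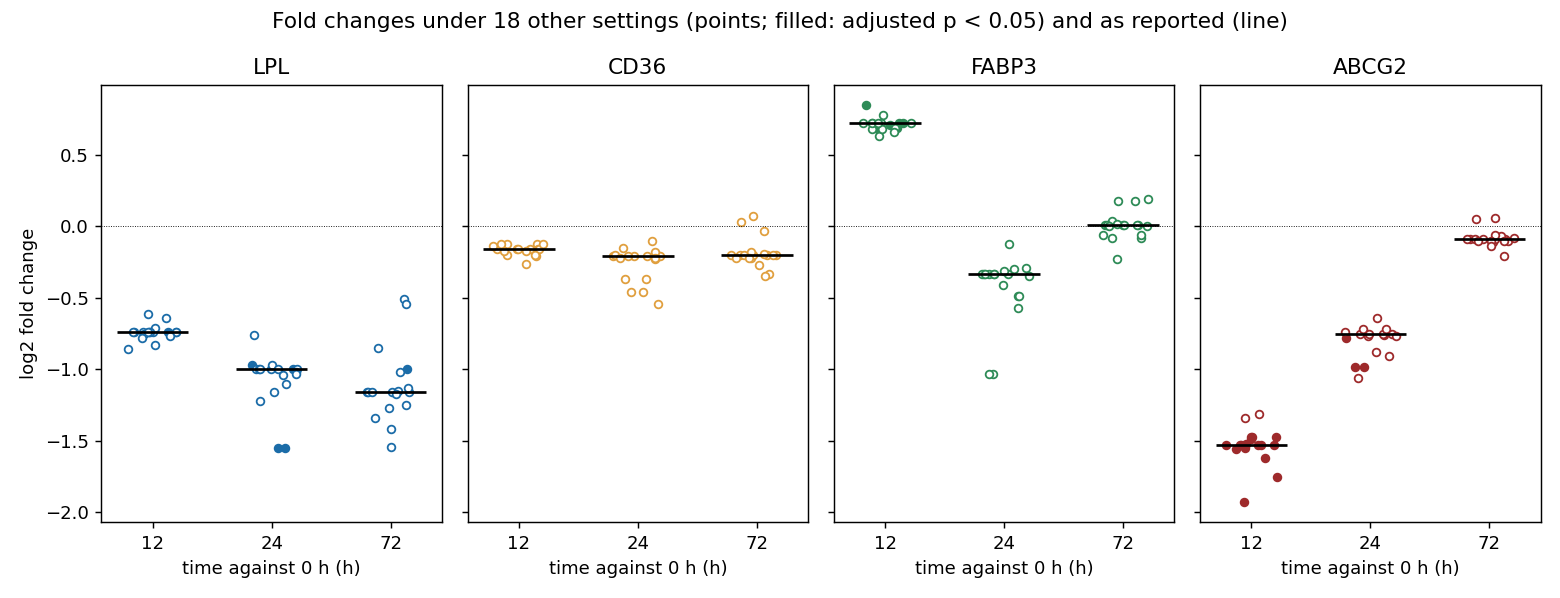
Log2 fold change against 0 h (vertical axis, shared) at 12, 24 and 72 h for 4 genes, with a line for the value reported and points for 18 other settings, filled where the adjusted p is under 0.05 (points are spread sideways for sight only). ABCG2 at 12 h stays between -1.93 and -1.31 and FABP3 at 12 h between 0.63 and 0.85, while LPL at 72 h spreads from -1.54 to -0.51.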

How the data were processed

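The data are 15 QuantSeq libraries of mammary biopsies from 4 cows. Per the study's methods, HTStream removed adapters, and STAR 2.6.0c placed the reads on Bos taurus UMD3.1 for counting by Ensembl gene. What the authors deposited is a signal, normalized counts, equal to CPM times a factor for each library, by a normalization method not given in the sources used here. Every deposited value was a whole multiple, within 0.01 reads, of the value of a single read in its library (100% of values), so reads could be recovered, at a depth of 1804120 to 6228132 per library. All columns were assigned to samples from the labels.

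Time points were compared by limma 3.58.1 (R 4.3.3, trended variance) on log2(normalized count + 0.5). The fit held 12 libraries, those of cows 2 to 4, with duplicateCorrelation by cow and Benjamini-Hochberg adjustment at 0.05 over the 13525 genes with a read. Fold changes are on that scale. Intervals of fold changes come from the limma fit and its estimate of the spread between libraries, whereas limits from reads cover counting error only. No filter on low values was applied, and ranks and medians refer to the 2922 genes averaging 10 normalized counts or more. Same-numbered libraries come from the same cow and their deviations over those 2922 genes correlated in 18 of 18 pairs (median 0.37, lowest 0.209). The consensus correlation over the 13525 genes fitted was 0.0179, so the main fit took little account of the pairing. Without a block the adjusted p of ABCG2 at 12 h was 0.00261 in limma, against 0.00211 in the main fit. Named genes were the 5 members, and by correlation the genes of most like pattern. Since identifiers have no names here, at most 2 such identifiers that were higher at 12 h and 2 that were lower are given. There were 15 alternatives set in advance, including edgeR (version 4.0.16), DESeq2 (version 1.42.0) and limma-voom on recovered reads, and 3 chosen after seeing the data, as was the spread between cows without each cow. The members, lists and tests were chosen with earlier results of these data known. Lists of pathway genes and cell type markers by symbol were not analysed here.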

Additional observations from a re-analysis of the deposited data

Results flagged for a closer look

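For each gene the difference between the effects at 2 time points is the direct comparison of those time points in limma, already given above. For FABP3 the 12 h and 24 h effects differed, and the log2 difference, 24 h minus 12 h, was -1.05 (adjusted p = 0.0322 in limma, lower in 4 of 4 cows, from 2765 ± 451 to 1348.5 ± 317 normalized counts, SD, n = 3 cows). For ABCG2 the 12 h and 72 h effects differed, and the log2 difference, 72 h minus 12 h, was 1.44 (adjusted p = 0.00349 in limma, higher in 3 of 3 cows, from 185 ± 106 to 463 ± 84.2 normalized counts, SD, n = 3 cows). In limma the FABP3 call was lost when cow 2, cow 3 or cow 4 was left out, and the ABCG2 call without cow 3 or cow 4. In these comparisons the hours after DEX cannot be told apart from the gland biopsied, nor from the time of day, since only the 12 h biopsies fell in the morning. The 72 h groups hold 3 libraries and were not examined for an outlying library, and there LPL was 513 normalized counts in cow 4 against 1837 in cow 3 and 1845 in cow 2. In 12 groups of 4 libraries (4 genes at 0, 12 and 24 h), 0 held a library past the 95% critical value of Dixon's test, and about 0.6 would do so by chance.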

How the results depend on the processing

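Of 432 values under 18 alternatives (15 set in advance, 3 chosen after seeing the data), 372 kept their direction and their side of the threshold of 0.05, 29 passed it newly, 7 no longer passed it and 24 turned in direction, all of these last in differences that passed under no setting. The cause was not tested, except that fits without a cow have fewer libraries. Newly passed log2 fold changes were, with edgeR, LPL at 12 h (-0.74), 24 h (-0.97) and 72 h (-1.0), and with edgeR and DESeq2 (both with a replicate block) ABCG2 at 24 h (-0.76 and -0.78), from 12 to 24 h (0.73 and 0.74) and from 24 to 72 h (0.68 and 0.68). FABP3 at 12 h and from 12 to 72 h passed newly with cow as a fixed term, the replicate block (0.72 and -0.71), a mean of at least 10 (0.72 and -0.71), quantile normalization (0.85 and -0.67), limma-voom (0.71 and -0.70), edgeR (0.72 and -0.70), DESeq2 (0.69 and -0.69) and with cow 1 added but for its 24 h library (0.68 and -0.74). In cows 2 to 4 the replicate block in limma changed no other call of the 4 genes. FABP3 from 24 to 72 h passed with quantile normalization (0.67). At 24 h LPL (-1.55) and ABCG2 (-0.98) passed with all 15 libraries, with cow as correlation or as a fixed term (replicate block), and LPL without the 72 h library of cow 4 (-1.0).

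Leaving out a cow at a time gave ABCG2 -1.93 to -1.31 at 12 h, -0.21 to 0.05 at 72 h and 1.10 to 1.83 from 12 to 72 h, and FABP3 -1.29 to -0.79 from 12 to 24 h and -0.08 to 0.18 at 72 h. CD36 ranged from -0.20 to 0.11 (12 to 24 h), -0.35 to 0.07 (72 h), -0.16 to 0.19 (12 to 72 h) and -0.25 to 0.22 (24 to 72 h), and LPL from -0.90 to 0.20 (12 to 72 h) and -0.78 to 0.53 (24 to 72 h). Over all 18 alternatives CD36 ranged from -0.26 to -0.12 at 12 h and from -0.54 to -0.10 at 24 h, FABP3 from -1.03 to -0.12 at 24 h, from -1.71 to -0.79 from 12 to 24 h and from 0.07 to 0.95 from 24 to 72 h, LPL from -0.80 to -0.12 from 12 to 24 h, ABCG2 from 0.49 to 1.05 from 12 to 24 h, and CD36 from -0.25 to 0.51 from 24 to 72 h. Turned directions without the 72 h library of cow 4 were ABCG2 at 72 h (0.06), CD36 at 72 h (0.03) and from 12 h (0.20), and LPL from 12 h (0.20) and 24 h (0.46) to 72 h. FABP3 at 72 h was -0.08 with all 15 libraries, -0.06 without that of cow 1 at 24 h and -0.23 with all 15 and cow as a fixed term. LPL from 24 to 72 h was, with all 15 libraries, 0.28 (cow as correlation) and 0.21 (cow as a fixed term). It was 0.19 with quantile normalization and 0.03 with totals without the 20 most abundant genes. CD36 from 12 to 72 h was 0.11 and 0.07 with these last pair of scalings, and from 24 to 72 h -0.03 with limma-voom.

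Counts of genes called moved by over 1.5 times as follows. Limma called 525 genes at 12 h, against 907 with edgeR, 899 with all 15 libraries and cow as a fixed term, 867 without cow 1 at 24 h, and 168 to 203 with a cow left out. At 24 h it called 312, against 630 (edgeR), 524 and 650 (all 15 libraries, cow as correlation and as a fixed term) and 78 to 99 (a cow left out). At 72 h it called 0, against 55 (edgeR), 22 (DESeq2), 3 (cow as a fixed term), 2 and 1 (all 15, cow as correlation and as a fixed term) and 0 to 1 (a cow left out). From 12 to 24 h it called 95, against 234 (cow as a fixed term), 325 and 426 (all 15, in the same order) and 277 (without cow 1 at 24 h). Counts there were also 143 (pseudocount 0.1), 233 (mean of at least 10), 237 (voom), 538 (edgeR), 315 (DESeq2) and 2 to 14 (a cow left out). From 12 to 72 h it called 490, against 928 (edgeR) and 180 to 218 (a cow left out), and from 24 to 72 h 482, against 988 and 103 to 176.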
